A study of Arabidopsis thaliana with 4 samples.

Results

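The low-ratio valleys of the TB plates are short runs of neighbouring array wells with a low H3K4me2 log ratio. The widest of these runs held 17 wells, and no plate of the set had a median below -0.8. The valleys were found in whole seedlings of Arabidopsis thaliana, ecotype Col-0, aged 10 days, grown in liquid medium and left untreated. The members were chosen by the measured values themselves: each replicate profile was centred on its median over all probes of the array, both were averaged, and runs of at least 2 consecutive wells below -0.8 were kept, in the order of plate, row and column. This gave 266 valleys with 855 wells, which is 8.92% of the 9588 TB wells with a value and part of 21728 probes with a value on the whole array. Because the same values chose the members, their levels are given as a description, with no test.

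Chromatin precipitated with an antibody against H3K4me2 was hybridised together with input DNA of the same replicate on 2-colour arrays, for a study that aimed at a reference map of seedling chromatin. There was 1 group, with no mutant, treatment or second tissue. It held 4 arrays, which were a dye swap for each of replicates I and II. Both columns of a swap held the same deposited values (0 features differed in either replicate), so n was 2. The labels do not say whether I and II were separate cultures, and the spread between them may be technical. Whole seedlings mix many cell types, so a change in the share of cells that carry the mark and a change in its amount per cell cannot be told apart in any ratio given here.

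H3K4me2 is a methylation state of histone H3 that is placed by SET-domain methyltransferases and removed by demethylases of the LSD1 and JmjC families. In Arabidopsis it is known mainly from genes, where it lies along promoters and transcribed sequence, while transposons and pericentromeric heterochromatin mostly lack it. Intergenic sequence and some silent genes within gene-rich arms are also known to carry little of it.

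The label of these runs as low in H3K4me2 could not be checked in full. The deposited values were log ratios without a stated base, and neither they nor the labels settle whether a positive value means more immunoprecipitate or more input. All levels below are therefore given in deposited log-ratio units above or below the array median, and "low" refers to this ratio. The probes are known by plate and well only. Their genes, positions and sequences were not used here, so widths and distances are counted in wells, and no sequence is shown. Whether neighbouring wells are neighbours in the genome is not stated in the labels.

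The valleys lay well below the rest of the TB wells in both replicates. The median of their wells was -1.06 in replicate I and -1.10 in replicate II, against 0.41 and 0.45 for the other TB wells. The medians of the replicates differed by far less than these levels, with an SD of 0.027 (n = 2) on either side. Of all TB wells, 1101 (11.5%) had a mean below -0.8, against 27.8% of all probes on the array, and these shares describe the values that the rule used. A further 246 TB wells below -0.8 stood alone and are not members. Their median was -0.996 in replicate I and -0.999 in replicate II, and the lowest of them was TB19G06 at -1.995.

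**Figure D1:**
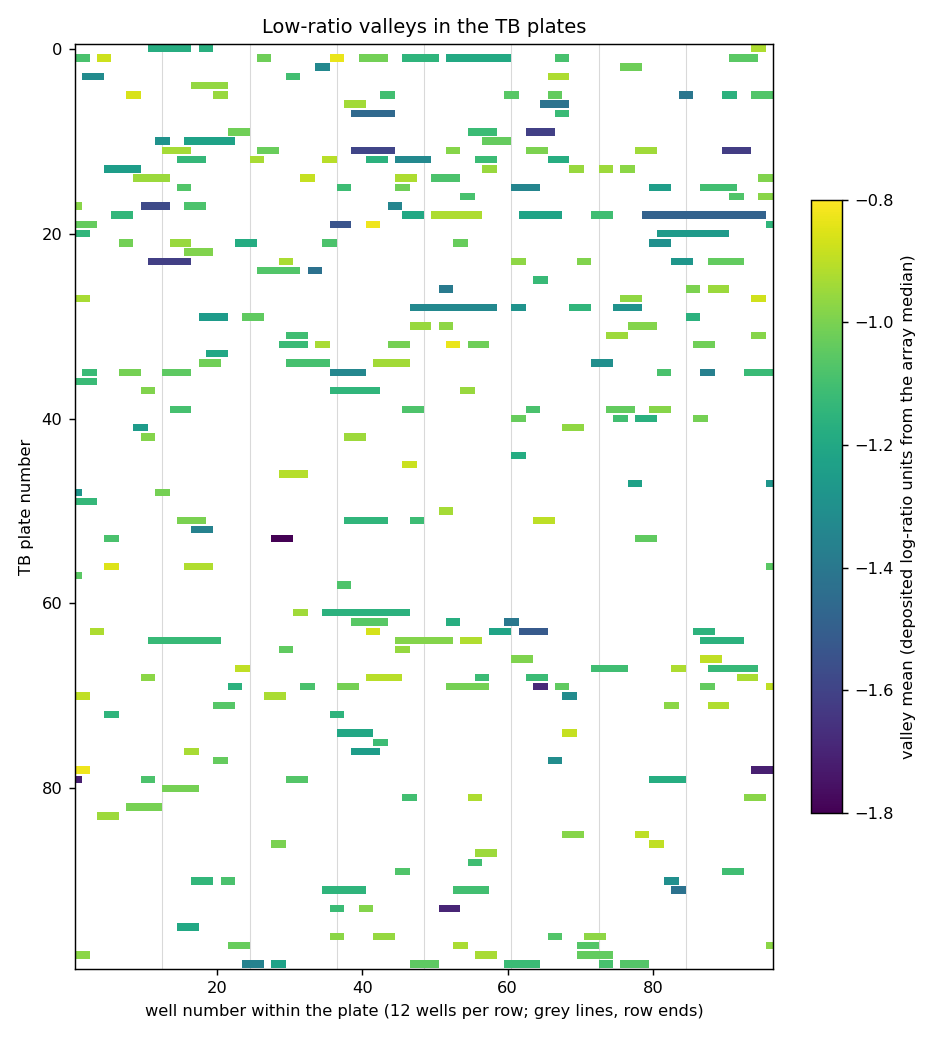
The valleys of the TB plates, with plate number down the page and well number within the plate across it. Each bar is a valley, or its portion on that plate, coloured by its mean over both replicates. Bars are dense in plates 10 to 19, with 171 valley wells, and sparse in plates 40 to 59, with 36 and 38 valley wells per 10 plates.

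The valleys were narrow. A width of 2 wells was the most frequent, with 118 valleys (44.4%), and 79 valleys (29.7%) held 3 wells. The median width was 3 wells and the mean 3.21. Widths of 4 wells occurred 27 times, of 5 wells 19 times and of 6 wells 11 times. Valleys of 7 wells or more were rare, with 12 (4.51%) that together held 113 wells (13.2% of the valley wells). The valleys of 4 wells or more made up 25.9% of the valleys but 44.7% of their wells.

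The widest valley ran from TB18G07 to TB18H11 and held 17 wells. Its mean was -1.46 in replicate I and -1.52 in replicate II, or -1.49 ± 0.040 (SD, n = 2). It began abruptly: TB18G06, the well before it, was at -0.15 in replicate I and at -0.11 in replicate II, and TB18G07 was at -1.67 and -1.501. The first 12 wells stayed between -1.76 and -1.49 on average, and the last 5 between -1.26 and -0.997. The valley therefore had a deep part and a shallower end. After 1 well at -0.45 another valley followed, from TB19A01 to TB19A03. Among the TB wells, the highest ratios were at TB17H12 with 2.28 ± 0.027 and TB18A01 with 2.20 ± 0.083 (SD, n = 2 each), which were separated from the widest valley by 78 and 77 wells.

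Of the other widest valleys, TB28D11 to TB28E10 held 12 wells at -1.33 ± 0.010 (SD, n = 2), with means of -1.33 in replicate I and -1.34 in replicate II. It was uneven inside. TB28E04 was at -1.94 and TB28E06 at -1.81, while TB28E05 between them was at -1.13 and TB28E01 at -0.82. TB61C11 to TB61D10 held 12 wells at -1.12 in replicate I and at -1.203 in replicate II. TB20G09 to TB20H06 held 10 wells at -1.29 and -1.22, and TB64A11 to TB64B08 held 10 wells at -1.09 and -1.17. The 5 widest valleys had means between -1.49 and -1.13 and an SD between replicates of 0.057 or less. The first of them was lower than each of the others by more than that.

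Most valleys were only moderately deep. The median of the valley means was -1.04 in replicate I and -1.10 in replicate II, and over both replicates the middle of the distribution spanned -1.16 to -0.97 (25th to 75th percentile). The lowest well of a valley had a median of -1.17 in replicate I and -1.21 in replicate II. It was below -1 in 233 valleys, below -1.5 in 39 (14.7%) and below -2 in 5. The 3 long low blocks of the TA and TC plates, with 3358 wells, had a median of -1.505 in replicate I and -1.64 in replicate II. Only 8 valleys (3.01%) had a mean below the median of those blocks, -1.58 over both replicates, and 54 valley wells (6.32%) lay below it. The threshold of -0.8 fixes the upper limit of the valley wells.

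The 5 valleys with the lowest means held 2 to 4 wells, as most valleys did. TB53C04 to TB53C06, with 3 wells, had the lowest mean, at -1.68 in replicate I and at -1.94 in replicate II. Within it TB53C04 was at -0.89 and -1.42, TB53C05 at -2.18 and -2.05, and TB53C06 at -1.96 and -2.35. Its floor was formed by 2 wells, while the first well stood well above them in both replicates. The next well, TB53C07, was at 1.22 in replicate I and at 1.45 in replicate II, a step of 3.49 ± 0.44 (SD, n = 2) between adjacent wells and the largest at any valley edge.

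TB78H10 to TB79A01, with 4 wells, held the lowest well of all. TB78H10 was at -2.15 in replicate I and at -2.19 in replicate II, TB78H11 at -2.29 and -2.21, TB78H12 at -1.41 and -1.29, and TB79A01 at -1.05 and -1.10. This valley ran over the border from plate 78 to plate 79, and the rise continued on the new plate, with TB79A02 at 0.30 and -0.32 and TB79A03 at 1.67 and 1.53. The replicates gave nearly the same shape, apart from TB79A02, where they fell on opposite sides of the median.

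TB93E03 to TB93E05 had a mean of -1.56 in replicate I and -1.83 in II, with its floor at TB93E04 (-2.001 and -2.34). TB69F04 to TB69F05 followed at -1.52 and -1.85, and TB11H06 to TB11H09 at -1.45 and -1.79. In 4 of these 5 lowest valleys, all but TB78H10 to TB79A01, replicate II was lower than replicate I by more than is typical of the valleys, whose median SD between replicates was 0.091. The ranges spanned by the replicates of these 4 overlap.

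The shallowest valleys were TB19D05 to TB19D06 at -0.82 ± 0.0034, TB78A01 to TB78A02 at -0.83 ± 0.085 and TB01C12 to TB01D01 at -0.83 ± 0.22 (SD, n = 2 each), all of 2 wells. At the threshold, membership depended on small amounts. TB11G08 at -0.801, TB56B04 at -0.802 and TB62D04 at -0.803 were the members nearest to it. TB39G11 at -0.7998, TB12C05 at -0.7996 and TB86F02 at -0.7994 were just outside. The SD between replicates of these 6 wells was 0.041 to 0.40, larger than the distance of any of them from the threshold.

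**Figure D2:**
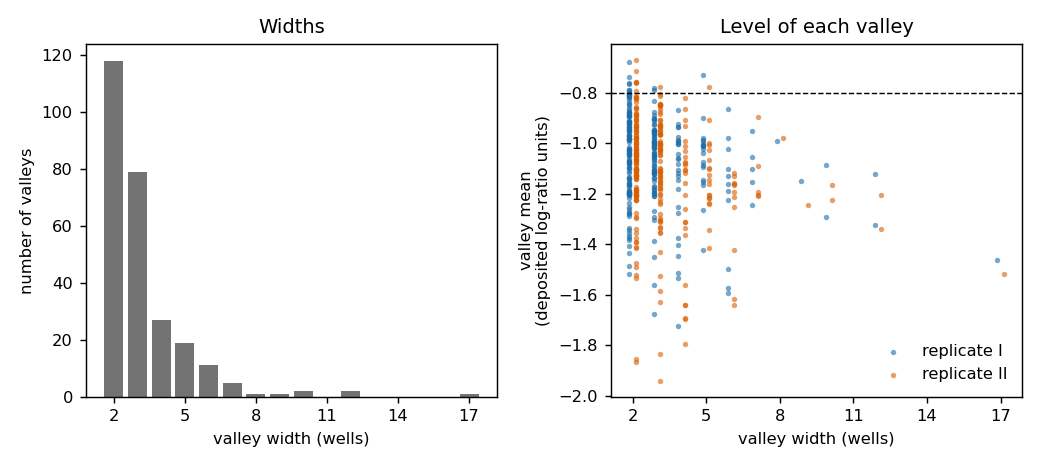
Left, number of valleys at each width in wells. Right, mean of each valley in deposited log-ratio units from the array median against its width, with a point for each replicate and the threshold of -0.8 as a dashed line. Valleys of 2 and 3 wells make up 74.1% of the total, and the widest one, with 17 wells, lies at -1.46 and -1.52.

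Wider valleys were somewhat deeper. Valleys of 2 or 3 wells had a median mean of -1.03 in replicate I and -1.05 in replicate II, and those of 6 wells or more -1.15 and -1.203. The lowest well was below -1.5 in 15 (7.61%) of the valleys of 2 or 3 wells and in 24 (34.8%) of those of 4 or more, although a wider valley also offers more wells for a minimum. Across the 266 valleys, width and mean correlated weakly (r = -0.25), as a description of wells that share arrays and neighbours. A valley of 2 wells has only end wells, which lie next to the threshold crossing. The rule thus ties width to mean in part, and no relation beyond it was tested. All 5 lowest valleys held 2 to 4 wells, but so did most valleys, so nothing about width is read from them. TB23A11 to TB23B04, with 6 wells, was nearly as low as TB11H06 to TB11H09, at -1.616 against -1.621 over both replicates. Among the 67 lowest valleys by mean, the mean width was 3.90 wells, and 16 held 5 wells or more. Among the 67 highest it was 2.69 wells, and 5 held 5 wells or more.

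The lowest well often lay inside a valley. Of the 148 valleys with 3 wells or more, 90 (60.8%) had their lowest well away from both ends. At a width of 3 wells this was so in 48.1%, where 33.3% of the places are inside. The shares were 70.4% against 50% at 4 wells, 78.9% against 60% at 5 and 81.8% against 66.7% at 6. Among widths of 3 to 7 wells, only 7 went the other way, with 60% (3 of 5 valleys) against 71.4%. End wells were also the ones next to the threshold crossing that the rule set. Inner wells averaged -1.16 in replicate I and -1.17 in replicate II, and the wells at the ends -1.04 and -1.12. In valleys of 3 wells the middle well was at -1.13 in replicate I and at -1.12 in replicate II, the first at -0.995 and -1.07 and the last at -1.06 and -1.11. The middle well was the lowest in both replicates, but in replicate II it was nearly level with the last well. In valleys of 5 wells the middle well was at -1.10 and -1.29 and the end wells between -0.99 and -1.10.

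**Figure D3:**
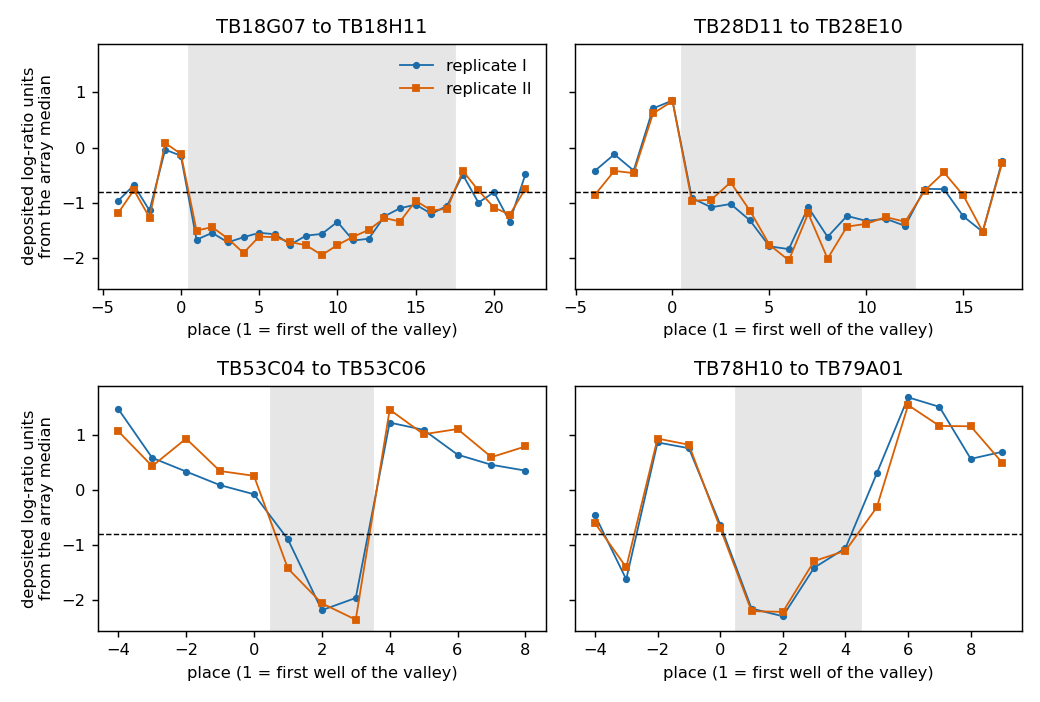
Log ratio of each well, in deposited units from the array median, in and around 4 valleys, with replicate I as circles, replicate II as squares, the valley in grey and the threshold of -0.8 dashed. Places count wells from the first one of the valley. Both replicates follow the deep floor of TB18G07 to TB18H11, the uneven floor of TB28D11 to TB28E10 and the sharp rises after TB53C06 and TB79A01.

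The steps at the valley edges varied in size. The rule makes each of them a rise, and they were not compared with steps between other adjacent wells. The step from the end well of a valley to the next well outside had a median of 0.73 in replicate I and 0.74 in replicate II, over 532 edges. It exceeded 1 at 165 edges (31%) and 2 at 18 edges. After TB53C06, the largest steps were between TB72A05 and TB72A04 (3.11 ± 0.085), TB06F05 and TB06F04 (3.02 ± 0.13) and TB00A11 and TB00A10 (2.91 ± 0.0024; SD, n = 2 each). At these 4 edges the well outside was between 1.33 and 1.72, so a valley bordered directly on a high well.

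The first well outside was usually still below the array median. Averaged over the valleys it was at -0.18 in replicate I and at -0.24 in replicate II on the side before the valley, and at -0.25 and -0.29 on the side after it. Only 122 of 532 such wells (22.9%) were above 0, against 65.2% of all TB wells. The level of this first well depends on the threshold. Over both sides and replicates it averaged -0.24, against -0.014 with a threshold of -0.6 and -0.62 with -1.2. Its median over the valleys was -0.35. By the next well outward the mean was 0.18 and 0.10 before the valley, and 0.08 and -0.02 after it. Further out the means varied from well to well. On the side after the valley they tended to rise from 5 to 20 wells, less regularly so on the side before it. At 5 wells after the valley they were at 0.0054 and 0.029. At 10 wells they were at 0.14 and 0.11 before and at 0.12 and 0.11 after, and at 20 wells at 0.15 and 0.12 before and 0.23 and 0.17 after. The mean over all TB wells was 0.24 in both replicates, and neither replicate's flank mean reached it on either side up to 20 wells out.

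Wells before a valley were slightly higher than wells after it. The difference was 0.10 in replicate I and 0.11 in replicate II at 2 wells, 0.062 and 0.064 at 3 wells and 0.092 and 0.11 at 6 wells, in the same direction in both replicates. It was smaller at some other distances, with 0.027 and 0.021 at 4 wells and 0.027 and 0.0003 at 10 wells. At 7 wells it was -0.010 and -0.0004, and beyond 10 wells the sign varied with distance. Both replicates read the same valleys, and with 2 replicates an exact sign-flip test cannot give a two-sided p below 0.5, so this asymmetry is given as a value only.

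**Figure D4:**
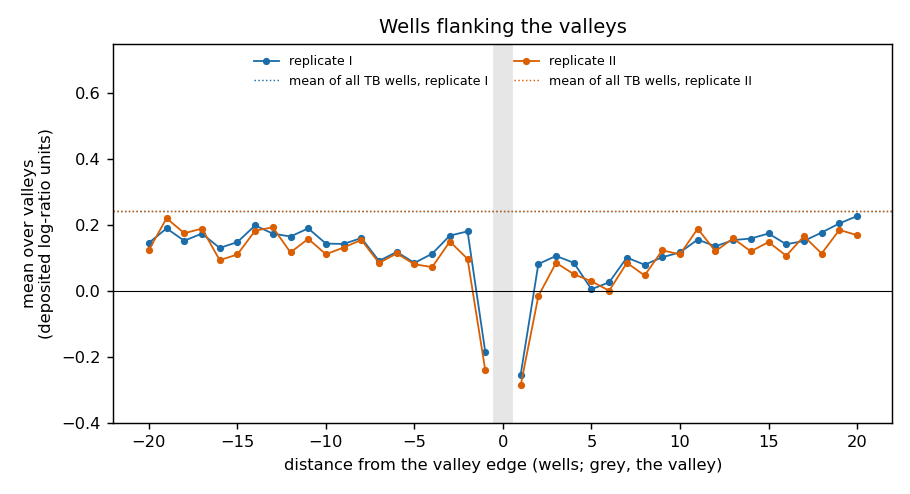
Mean log ratio of the wells 1 to 20 wells before (left) and after (right) the 266 valleys, in deposited units from the array median, with a line for each replicate. Dotted lines give the mean of all TB wells, 0.24 in each replicate. The profile rises from about -0.2 next to the valley to about 0.1 at 2 to 3 wells and stays below the dotted lines at all 20 distances.

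Valleys differed in the level of their flanks. With the flank taken as the mean of the 3 nearest wells on a side, 74 valleys (27.8%) had both flanks above the array median, 124 (46.6%) had 1 and 68 (25.6%) had none. Valley levels were alike in these classes: the median was -1.06 in replicate I and -1.08 in II with both flanks above, -1.04 and -1.10 with 1, and -1.02 and -1.10 with none. The differences between classes were within the spread between replicates. The widest valley, TB18G07 to TB18H11, had no flank above 0, whereas TB20G09 to TB20H06, with 10 wells, had flanks of 0.35 before and 0.42 after. Among the 124 valleys with 1 flank above 0, it was the side before in 72 and the side after in 52.

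Deep and shallow valleys had similar flanks. In the 67 lowest valleys, with means from -1.81 to -1.16, the flanks had a median of 0.06 in replicate I and -0.06 in replicate II. In the 67 highest, with means from -0.97 to -0.82, they were at -0.05 and -0.07. The gap between valley and flank, with a median of 1.05 over all valleys, was 1.35 in the lowest and 0.89 in the highest. This difference follows from sorting the valleys by their mean, since the flank levels differed little.

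The distance to high runs was counted as well. Runs of 2 or more wells above 0.8, the mirror image of the rule, numbered 568 with 1927 wells (20.1% of the TB wells). Of the 532 valley ends, 165 (31%) had a well of such a run within 4 wells, against 43.9% of the 6806 TB wells outside valleys and high runs and 39.4% of the single low wells. The wells that make up a valley cannot themselves be high, which lowers the share for its end wells by construction, so no difference is read from these shares. A total of 17 valleys touched a high run directly. The valley farthest from one, TB34F12 to TB34G02, was 63 wells away.

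The gaps between valleys varied widely. Between the end of a valley and the start of the next lay 19 wells in the median, with a mean of 32.9, from 1 well to 280. Of the 265 gaps, 42 (15.8%) were of 3 wells or fewer, 99 (37.4%) of 10 or fewer, and 17 were longer than 96 wells, the size of a whole plate. The median gap depended on what counts as low: it was 14 wells at a threshold of -0.6, 31 at -1.0 and 94.5 at -1.2, 9 with runs of 1 well, 30 with runs of at least 3, and 10, 8 and 39 when centred on the TB median, on the main mode or not at all. At 2 wells from a valley's edge, 7.52% of the wells belonged to another valley, against 8.92% of all TB wells. The share was 13.2% at 3 wells, 10.4% at 8, 13.9% at 10, 13.4% at 30 and 10.3% at 96 wells. The rule allows no valley well at a distance of 1 well. At 2 wells it allows one only where the gap is a single well. The shares close by are thus lowered by construction, and nothing about clustering is read from them.

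Where valleys lay close together, the ground between them usually stayed low. At the 20 gaps of a single well, that well had a median of -0.58 in replicate I and -0.64 in replicate II, and 1 of the 20 was above 0. At the 42 gaps of up to 3 wells, the highest well between had a median of -0.35 and -0.42, and it was above 0 in 10 (23.8%). In most of these narrow gaps, then, the ratio did not return to the array median. Of the wells directly outside any valley, 22.9% were above 0. The rule also bounds each such gap by low wells on both sides, so nothing particular to these gaps is read from the shares.

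When valleys up to 10 wells apart were counted as a group, a limit chosen after the gaps were seen, 154 of the 266 valleys (57.9%) fell into 55 groups of 2 or more. The share that randomly placed valleys would give was not computed, so nothing about clustering is read from this count. The group with the most valley wells ran from TB18D10 to TB19A03, with 6 valleys and 39 valley wells among 54 wells (72.2%). Its median was -1.07 in replicate I and -1.07 in replicate II. TB01C02 to TB01F08 followed with 6 valleys and 24 valley wells among 43, at -0.75 and -0.92. TB12B03 to TB12F08 held the most valleys, 7 with 22 wells among 54, at -0.58 and -0.69. Smaller groups could be denser: TB64D09 to TB64E08 had 11 valley wells among 12 (91.7%).

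The plate with the most valley wells was plate 18. It held 39 of 96, in 6 valleys. TB18A06 to TB18A08 had a mean of -1.15 in replicate I and -1.13 in replicate II. TB18D10 to TB18D12 was at -1.30 and -1.10, with TB18D12 reaching -1.81 and -1.63. After 1 well at -0.67 came TB18E02 to TB18E08, 7 wells at -0.95 and -0.90 and thus wide but shallow. TB18F02 to TB18F07 was at -1.19 and -1.25, TB18F12 to TB18G02 at -1.08 and -1.14, and the widest valley, described above, closed the plate. The other 57 wells of plate 18 had a median of 0.33 in replicate I and 0.47 in replicate II, close to that of other TB wells, so the plate combined low runs with ordinary ground.

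Over the plates the valleys were unevenly spread. A plate held 7 valley wells in the median, 7 plates held over 20, and 11 plates held none. The longest stretch of plates without a valley well was 2 plates, namely 54 to 55, and plates 59 to 60 made up another of the same length. The number of valleys per plate had a variance 1.60 times its mean. After plate 18 came plate 1 with 32 valley wells, plate 64 with 27 and plate 11 with 25. No plate had a median below -0.8, and the lowest plate median was that of plate 18, at -0.52 in replicate I and at -0.49 in replicate II.

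In blocks of 10 plates, the share of wells in valleys was highest in plates 10 to 19, at 17.8%, and lowest in plates 40 to 49, at 3.75%. With the rule applied to replicate I alone the shares were 19.1% and 4.79%, and with replicate II alone 17.2% and 3.96%. Plates 50 to 59 (3.97%) and 80 to 89 (4.06%) were also poor in valleys, and plates 60 to 69 rich (13%). Wells outside the valleys followed only in part. Their median was 0.30 in replicate I and 0.37 in replicate II in plates 10 to 19, and 0.39 and 0.40 in plates 40 to 49. Over the 100 plates, the number of valley wells and the median of the remaining wells correlated at r = -0.42, a description of plates that share the same arrays.

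**Figure D5:**
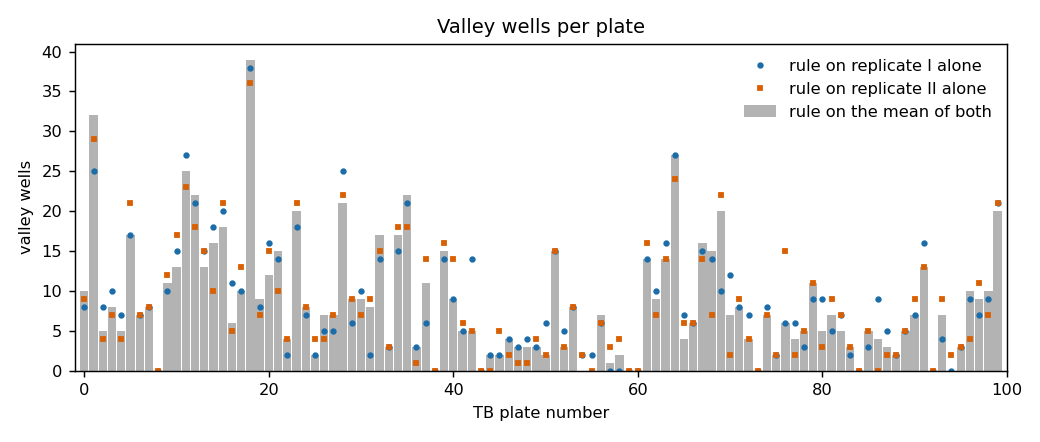
Number of valley wells in each TB plate. Bars show the rule applied to the mean of both replicates, circles replicate I alone and squares replicate II alone. Plate 18 has 39 valley wells, with 38 and 36 by single replicates, and the sparse plates 40 to 59 are sparse in each replicate.

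The longest gaps held, by the rule, no low wells other than single ones. From TB58D02 to TB61C07 there were 280 wells without a valley, with a median of 0.53 in replicate I and 0.58 in replicate II and 3 single wells below -0.8. From TB83A06 to TB85F08 there were 253, at 0.52 and 0.56 with 2 single low wells. A gap of 212 wells followed TB42D04, at 0.47 and 0.58 with 6 single low wells, and another of 212 wells followed TB53G08, at 0.42 and 0.61 with 3. The last of these began in plate 53, which also held the valley with the lowest mean.

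Valleys ran over row ends and plate borders. Of the 266, 8 crossed a plate border and 45 a row end, borders included. Where the well before a plate border was below -0.8, the well after it was too in 8 of 12 cases (66.7%), compared with 37 of 73 (50.7%) at row ends within a plate and 544 of 1016 (53.5%) within a row. The share of valley wells was 8.21% in outer and 9.34% in inner wells, and 7.50% to 10.9% over the 12 columns. Over the 8 rows it varied more, from 6.77% in row C to 12.3% in row D, and this held with replicate I alone (7.10% and 11.1%) and replicate II alone (5.68% and 11.8%). No valley lay next to any of the 12 empty TB wells, 7 of which were in plate 26, 4 in plate 58 and 1 in plate 10, so no run was ended by one.

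Valleys chosen in 1 replicate were low in the replicate not used to choose them. The rule gave 276 valleys with 864 wells in replicate I alone. Read in replicate II, these valleys had a median of -1.02, against -1.06 where they were chosen. Of the 276, 235 (85.1%) had a mean below -0.8 in replicate II and 275 (99.6%) a mean below 0. In the other direction, 268 valleys with 840 wells chosen in replicate II had a median of -1.01 in replicate I, against -1.10 where chosen. There, 225 (84.0%) were below -0.8 and all 268 below 0. Counted by wells rather than valley means, 694 of the 864 (80.3%) were below -0.8 in replicate II and 677 of the 840 (80.6%) in replicate I. Of all TB wells, 11.8% were below -0.8 in replicate II and 11.6% in replicate I. Both replicates use the same probes, so a property of a probe that lowers it on every array would be shared, and its part was not tested.

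The exact limits of the valleys were less well repeated. A total of 622 wells lay in valleys of both replicates taken alone, which is 72.0% of those of replicate I and 74.0% of those of replicate II. Of the 855 valley wells, 690 (80.7%) were below -0.8 in each replicate, 81 in replicate I only and 84 in replicate II only. Valley means were below -0.8 in both replicates in 248 of 266 (93.2%), but every single well was in only 139 (52.3%). The replicates differed most in TB26E03 to TB26E04, at -0.91 in replicate I and at -1.87 in replicate II, and in TB68A10 to TB68A11, at -1.28 and -0.67.

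The difference between replicates (I minus II) was slightly positive in the valleys, at 0.047 on average with an SD of 0.27 over 855 wells, and -0.0052 with an SD of 0.31 over the other 8733 TB wells. It depended on the column. In valley wells it was 0.0077 in odd and 0.084 in even columns, and in the other TB wells -0.039 and 0.029. The contrast between odd and even columns was thus of about the same size in and outside the valleys. Odd columns had 8.56% and even columns 9.27% of their wells in valleys.

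The same rule found more low ground in the pooled TA plates, but much less of a difference in the TA plates with a similar overall level. TB plates held 27.7 valleys per 1000 wells (28.8 with replicate I and 28.0 with replicate II alone), against 46.3 (43.0 and 46.7) in the 7090 TA wells outside the low blocks of plates 21 to 30 and 37 to 51. The share of wells in valleys was 8.92% (9.01% and 8.76%) in TB plates against 21.6% (20.6% and 21.4%) in those TA plates. Mean width was 3.21 wells (3.13 and 3.13), against 4.66 (4.80 and 4.59). The widest valleys held 17 wells (17 and 17) and 39 wells (39 and 51). In rate, share and mean width, the gaps between the series were several times the spread between replicates. The exact sign-flip test is bounded at 0.5 here too. The median of all wells also differed, at 0.36 in TB against -0.05 in these TA plates. TA plates 1 to 20, with 1912 wells and a median of 0.35, were nearer to the TB plates. They had 32.9 valleys per 1000 wells (31.9 with replicate I and 32.4 with replicate II alone), 12% of their wells in valleys (11.1% and 12.4%) and a mean width of 3.65 wells (3.48 and 3.82).

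TC plates 0 to 13, with 1281 wells and a median of 0.39, resembled the TB plates. They had 33.6 valleys per 1000 wells (32.0 and 32.8), with 10.3% of their wells in valleys (8.67% and 9.76%) and a mean width of 3.07 wells (2.71 and 2.98). The valleys were thus somewhat more frequent there in both replicates, and the share of wells overlapped with that of the TB plates. Valleys of 2 wells made up 44.4% in TB plates, 34.8% in the TA plates and 48.8% in the TC plates. The median valley mean was -1.07, -1.14 and -1.08 in these 3 sets.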

How the data were processed

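Immunoprecipitated and input DNA of seedlings (15 µg each, amplified and labelled directly with Cy3 and Cy5, per the labels' protocols) were compared on 4 arrays. The authors deposited 1 log ratio per probe and array, in a table of 21800 features of which 72 had no value. No source used here gives the base of the log, its direction or any earlier normalization. Before centring, replicate I had a median of -0.02 and replicate II of 0.47, so each replicate was centred on its median, with no loess or quantile step. A well without a value ended a run, and runs continued over row ends and plate borders. Gaps count the wells between 2 valleys. Valleys are named by first and last well: the 5 widest, the 5 lowest and 3 highest by mean, the 5 lowest wells, 3 wells on each side of the threshold, and those of the plate with most valley wells. Wells and valleys named at edges, groups and gaps were chosen after their values were seen. Members, lists and comparisons were chosen with earlier results of these data known. The run finder was tested on simulated data with deep, well-separated valleys in a flat profile. That setting is easier than these data, so it checks the code only. Arrays number 4 and replicates 2, which limits precision, and no intensities were used. The software was Python 3.11.15 with pandas 2.3.3, numpy 2.4.6 and matplotlib 3.10.9.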

Additional observations from a re-analysis of the deposited data

How the results depend on the processing

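Results were recomputed under alternatives to the threshold, run length, centring, scaling, well order and run limits. Another threshold or centre changes what counts as low by construction: valley wells numbered 1308 below -0.6, 421 below -1.0 and 162 below -1.2, and 1655, 2194 and 369 when centred on the TB median, on the main mode or not at all, against 855. The valleys then numbered 144 below -1.0, 57 below -1.2, 428, 527 and 126 with those centres, 512 with runs of 1 and 148 with runs of at least 3, against 266. Median depth was -0.94, -1.01, -1.11, -1.18 and -1.42 for thresholds of -0.6, -0.7, -0.9, -1.0 and -1.2, -1.02 with runs of 1, -1.11 when each replicate had to be below, and -1.21, -1.32 and -1.004 with the other centres, against -1.07. Without 1 replicate it was -1.10 to -1.06. Valleys joined over 1 well numbered 246. Median width was 2 instead of 3 at -0.9, -1.0 and -1.2, with runs of 1, with each replicate below, without centring and down the columns. With wells ordered down the columns 321 wells in 144 valleys met the rule, and the well next to a valley averaged 0.31 instead of -0.24. Valley rates were 43.0 to 46.7 (TA) and 32.0 to 32.8 (TC) without 1 replicate, and 28.7 in TC with its low block. Bridged empty wells, runs ended at row ends or plate borders, equal scaling and, chosen after seeing the data, leaving out plate 18 or the 3 plates with empty wells left the numbers of wells and valleys within 1.5 times. No alternative gives a test, and signal over background was not examined.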
